A study of Mus musculus with 2 samples.

Results

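Monocytes and monocyte-derived macrophages were taken as the droplet barcodes that carried monocyte transcripts and lacked those of resident macrophages and of other liver cells. A barcode was a member when the unique molecular identifiers (UMIs, each marking 1 captured transcript) of Ccr2, F13a1, S100a4, Ly6c2 and Chil3 summed to at least 2, those of the Kupffer genes Clec4f, Vsig4 and Cd5l to at most 1, and those of Stab2, Ptprb, Skap1, Dcn, Ebf1, Flt3, Siglech and Csf3r to 0. Members also needed at least 1000 UMIs and 400 detected genes, with at most 30% of UMIs from mitochondrial genes. The rule found 1508 members, 387 in WT and 1121 in N-LKO, among 42372 barcodes within these quality limits and 190318 deposited barcodes. Members were selected on the measured levels of 16 genes, so the levels of those genes are given below as a description.

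Classical monocytes are made in the bone marrow, carry the chemokine receptor CCR2 and the surface protein Ly6C, and enter tissues in response to the ligand CCL2. In the liver they can differentiate into macrophages, which lose Ly6C and gain complement C1q, lysosomal enzymes and receptors for dying cells. Resident Kupffer cells are seeded before birth, sit in the sinusoids and are known by CLEC4F and VSIG4. In steatotic liver, recruited macrophages are known to take on a lipid-handling program with TREM2, GPNMB and osteopontin, the product of Spp1.

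The question was how these cells differ between WT liver and N-LKO liver with tumors. N-LKO mice carried loxP-flanked alleles of Nus1, which encodes NgBR, and an albumin-Cre transgene that is active in hepatocytes. NgBR and the protein encoded by Dhdds form cis-prenyltransferase, the enzyme that builds the dolichol backbone on which N-glycans are assembled. The WT library came from liver with the genotype label CTRL, and the N-LKO library from liver plus tumor with the label NgBR KO. The number of mice behind each library is not known here. Male mice were on a C57BL6 background and received standard chow before 16 weeks of the diet, which the titles call HFD and the treatment labels WD for both libraries. The study itself describes its single-cell data as from mice on WD, a Western-type diet rich in fat and cholesterol. Cells were released by collagenase perfusion, and hepatocytes and nonparenchymal cells, with tumor cells for N-LKO, were mixed at set ratios before loading. Each group had 1 library of 3′ transcript counts, and none of the differences below could be checked against replicates. Genotype, tumor tissue, mixing and library differed together and cannot be told apart. All intervals are exact 95% intervals that cover counting error only.

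Nus1, the targeted gene, measured 91.6 CPM (UMIs of the gene scaled to a common library total) in WT members and 55.1 CPM in N-LKO members, a log2 ratio of N-LKO over WT of -0.74 (-1.25 to -0.20). In barcodes under 500 UMIs it measured 57.8 and 37.4 CPM. Kupffer barcodes, chosen by their UMIs of Clec4f, Vsig4 and Cd5l, held Nus1 at 85.05 and 91.4 CPM. The deleted first exon lies outside the 3′ end that these libraries count, and Cre was driven by a hepatocyte promoter, so these values do not check the labels.

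The libraries held 85522287 UMIs over 100171 barcodes in WT and 87575064 UMIs over 90147 barcodes in N-LKO. Both libraries listed 2499 barcodes in common, 139 of them within the quality limits in both, and no member barcode was a member in both. Barcodes with under 500 UMIs, used here as the measure of RNA free in the suspension, numbered 18526 and 13674. The deposited barcodes began at 326 UMIs in WT and 377 in N-LKO, so emptier droplets are missing from this measure. Whether it also holds damaged cells was not tested, and all values after subtraction of free RNA depend on it. From 20 hepatocyte genes, such free RNA was estimated at 45.0% of the UMIs of WT members and 50.1% of those of N-LKO members. Members held 534682 UMIs in WT, with a median of 1256 per barcode, and 1704518 in N-LKO, with a median of 1338. The median mitochondrial share was 10.9% in WT and 17.9% in N-LKO members, against 11.3% and 14.6% in Kupffer barcodes. Doublets were not removed, and 3.36% of WT members and 6.87% of N-LKO members had a Scrublet doublet score above 0.25.

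Members made up 1.92% (1.73 to 2.12) of WT barcodes and 5.05% (4.76 to 5.34) of N-LKO barcodes within the quality limits. The N-LKO share was thus 2.63 times the WT share (2.34 to 2.96). For every 100 Kupffer barcodes there were 31.3 members (27.9 to 35.2) in WT and 60.6 (56.2 to 65.3) in N-LKO. Among barcodes with at least 2 UMIs of 6 leukocyte genes, a denominator added after seeing the data, the shares were 5.56% and 7.63%, a ratio of 1.37 (1.22 to 1.55). Leaving out barcodes rich in hepatocyte RNA from the denominator, also an added choice, gave a ratio of 1.63.

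Among barcodes of low mitochondrial content the member shares were close. With a mitochondrial limit of 10%, 153 of 4149 WT barcodes (3.69%) and 118 of 3106 N-LKO barcodes (3.80%) were members, a ratio of 1.03. The part of mitochondrial content in the difference was not tested. When every barcode was first thinned to 1000 UMIs, the rule kept 345 WT and 1079 N-LKO members.

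**Figure D1:**
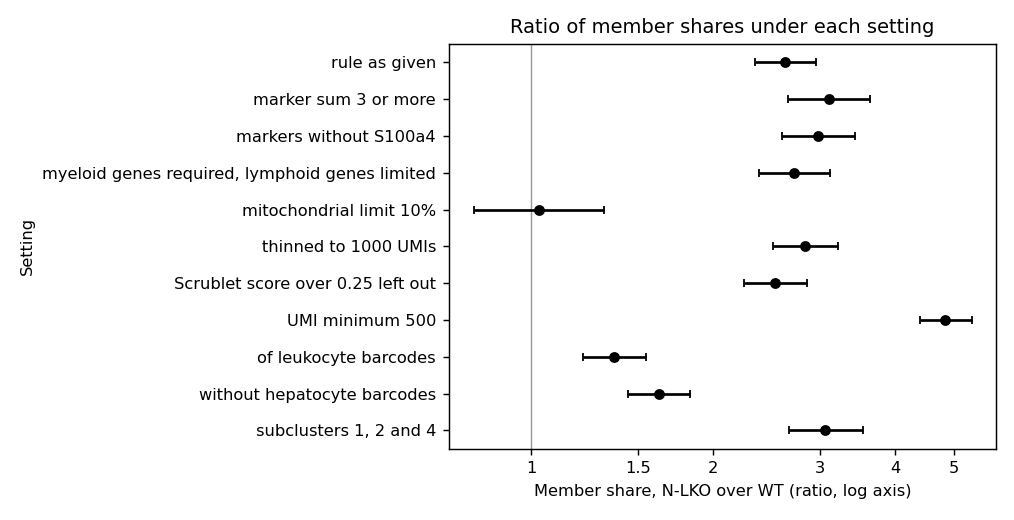
Ratio of the member share in N-LKO to that in WT (horizontal log axis) under the rule as given and 10 other settings, as points with exact conditional binomial 95% intervals. The ratio was 2.63 under the rule as given, 1.37 among leukocyte barcodes, 1.03 at the mitochondrial limit of 10% and 4.84 at a UMI minimum of 500.

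Most members met the rule by a few UMIs. The summed UMIs of the 5 markers were exactly 2 in 176 WT members (45.5%) and 400 N-LKO members (35.7%), and the median was 3 in both libraries. UMIs came from only 1 of the 5 markers in 37.7% of WT and 28.0% of N-LKO members, and from S100a4 alone in 43 and 79 members. Just outside the rule, 446 WT and 847 N-LKO barcodes had a marker sum of 1. Lyz2, the lysozyme gene of myeloid cells, measured 946.9 CPM in these WT barcodes, 2191 CPM in members with a sum of 2 and 3506 CPM in those with a higher sum. In N-LKO the same steps were 1477, 1926 and 3310 CPM. A Kupffer sum of 2 would have added 9 WT and 46 N-LKO barcodes.

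Among the genes of the rule, those for recruitment and Ly6C were level or lower in N-LKO members, and F13a1 and Chil3 were higher. Ccr2 measured 866 and 874 CPM (WT first, here and below). S100a4, a calcium-binding protein that lymphocytes and fibroblasts also make, measured 666 and 598 CPM, and Ly6c2 350 and 270 CPM. F13a1, the A subunit of coagulation factor XIII, measured 309 and 633 CPM. Chil3, the chitinase-like protein Ym1, measured 87.9 and 228 CPM, part of it in neutrophil-like members described below. All 5 were near 0 in barcodes under 500 UMIs, where the highest value was 21.3 CPM for Ccr2 in N-LKO. The Kupffer genes remained at 39.3 and 86.8 CPM for Cd5l, 18.7 and 23.5 CPM for Clec4f and 35.5 and 14.1 CPM for Vsig4.

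Checked against marker lists, members were leukocytes of mainly myeloid kind, with other leukocytes among them. The pan-leukocyte and pan-myeloid, natural killer and plasma cell lists hold no gene of the rule. The Kupffer, neutrophil and conventional dendritic lists hold genes that the rule limited, so their sums were partly set by it. The 12 pan-leukocyte and pan-myeloid genes summed to 8693 and 8933 CPM in members, against 454 and 1075 CPM in barcodes under 500 UMIs. Kupffer markers summed to 292 and 366 CPM, against 9266 and 7514 CPM in Kupffer barcodes. That contrast was largely fixed in advance, since both sets of barcodes were chosen on Clec4f, Vsig4 and Cd5l. The natural killer and innate lymphoid list summed to 759 and 304 CPM, the neutrophil list to 752 and 1634 CPM, and the plasma cell list to 2218 and 3244 CPM. Of WT members 1.55% held at least 2 UMIs of the neutrophil list, and of N-LKO members 6.24%. Conventional dendritic markers reached 2 UMIs in 12.4% and 12.1%. The label therefore holds for most but not all members, and 17 WT and 22 N-LKO members also met a T cell rule.

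Members were divided into 8 subclusters, using only genes at least 2 times as high as in barcodes under 500 UMIs in both libraries. This gene choice was added after seeing the data, since clustering on all variable genes placed 54.0% of members in clusters of which over 90% came from 1 library. The added choice placed 8.02% there. Subcluster 1, classical monocyte-like, held 562 members and was led by Vcan, Plcb1 and Stxbp6. Vcan encodes the matrix proteoglycan versican. Subcluster 2, macrophage-like, held 446 members and was led by Ms4a7, C1qb and C1qa, with 12 macrophage maturation and 7 lipid-associated genes raised at least 2-fold over the other members.

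The remaining subclusters were smaller and several were not monocytes or macrophages. Subcluster 3, conventional dendritic cell-like, held 203 members, was led by Cd209a, Ctnnd2 and Ccser1, and had Lyz2 at 792 CPM against 3824 CPM in subcluster 1. In it 22.7% of members entered through S100a4 alone, against 4.63% in subcluster 1. Subcluster 4, left unnamed, held 121 members and was led by Cxcl2, Ptgs2 and Nr4a2. Subcluster 5, T and natural killer-like, was led by Gzma, Gm2682 and Cd226 and held 86 members. Subcluster 6, unnamed, held 57 members with the myeloid granule genes Elane, Prtn3 and Mpo and with 20 cell cycle genes raised. Subcluster 7, plasma cell-like, held 17 members led by Ighg2b, Igkc and Jchain, and subcluster 8, neutrophil-like, held 16 led by Ngp, Camp and Ltf. Subclusters 1, 2 and 4 together gave a member share of 1.28% in WT and 3.92% in N-LKO.

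**Figure D2:**
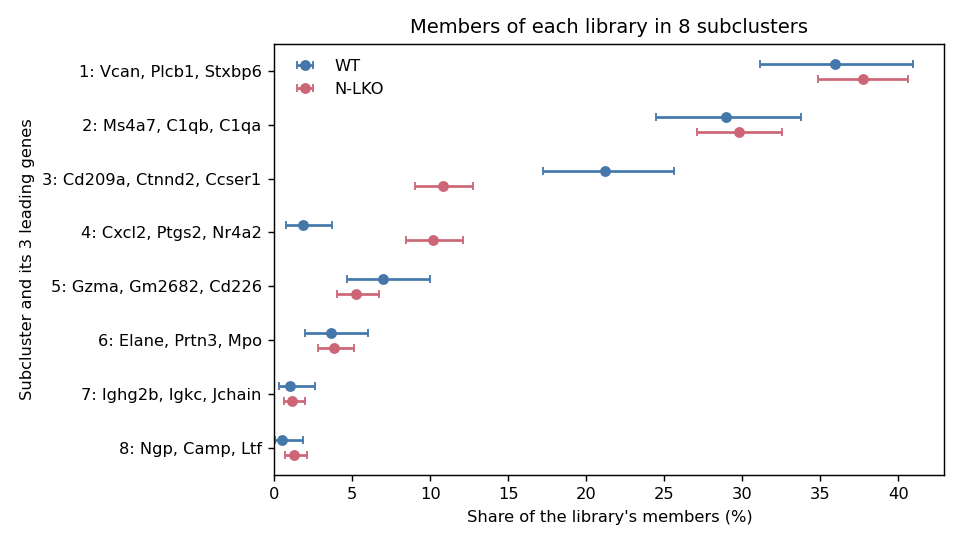
Share of each library's members in the 8 subclusters (horizontal axis, percent), as points with exact Clopper-Pearson 95% intervals, WT in blue and N-LKO in red. Subclusters 1 and 2 held 35.9% and 28.9% of WT members and 37.7% and 29.8% of N-LKO members.

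Subcluster 3 held 82 WT members (21.2%) and 121 N-LKO members (10.8%), and subcluster 4 held 7 (1.81%) and 114 (10.2%). These counts describe the composition of the members. They are not read as a difference between the groups, because leading genes of the subclusters themselves differed between the libraries. Leading genes also helped to set the subclusters, so their levels inside a subcluster, given below, are a description.

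Subcluster 4 carried genes that myeloid cells induce within hours of activation. It held Cxcl2, a ligand for neutrophil chemokine receptors, at 939 CPM against 24.4 CPM in the other members. Il1b, the cytokine interleukin-1β, stood at 975 against 145 CPM, and Ptgs2, the inducible cyclooxygenase, at 222 against 11.2 CPM. Its other leading genes were Nr4a2, Fosb, Ccrl2, Slc7a11, Ifrd1, Ier3 and Thbs1. Levels inside subcluster 4 are not compared between the libraries, since these genes set its members and only 7 of them were from WT.

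The promoters of these leading genes are shown because NF-κB, a factor activated by cytokine and pattern receptors, is known to drive several of them. A match to the NF-κB motif on either strand was found in the 250 bases before the start site of 4 of 9 leading genes with a RefSeq entry, and in 3.90% of all 32851 promoters of that length. The AP-1 motif, TGACTCA or TGAGTCA, was found in 0 of 9 and in 4.46% of all promoters. The leading genes were picked from these data, and the NF-κB motif was chosen because several were known targets. The shares are therefore a description and carry no test. A match is a run of letters and not a shown binding site. Sequences are from RefSeq (GRCm38.p6), 5′ to 3′ on the strand of the gene and ending 1 base before the start site, with the NF-κB match in capitals. The regions are chr5:90903649-90903898 on the forward strand for Cxcl2, chr17:35821463-35821712 on the forward strand for Ier3, chr9:111057519-111057768 on the reverse strand for Ccrl2 and chr7:19310046-19310295 on the reverse strand for Fosb. The match ended 87 bases before the start site in Cxcl2, 82 in Ier3, 46 in Ccrl2 and 178 in Fosb.
Cxcl2: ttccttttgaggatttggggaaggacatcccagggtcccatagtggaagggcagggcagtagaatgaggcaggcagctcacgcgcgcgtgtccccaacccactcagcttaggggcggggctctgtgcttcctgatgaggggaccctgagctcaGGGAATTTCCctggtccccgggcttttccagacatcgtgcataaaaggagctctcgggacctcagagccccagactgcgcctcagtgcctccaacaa
Ier3: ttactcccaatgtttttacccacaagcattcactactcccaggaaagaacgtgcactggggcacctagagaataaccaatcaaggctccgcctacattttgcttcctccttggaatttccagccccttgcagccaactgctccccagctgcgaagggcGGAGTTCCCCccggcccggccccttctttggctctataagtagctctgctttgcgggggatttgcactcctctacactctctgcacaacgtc
Ccrl2: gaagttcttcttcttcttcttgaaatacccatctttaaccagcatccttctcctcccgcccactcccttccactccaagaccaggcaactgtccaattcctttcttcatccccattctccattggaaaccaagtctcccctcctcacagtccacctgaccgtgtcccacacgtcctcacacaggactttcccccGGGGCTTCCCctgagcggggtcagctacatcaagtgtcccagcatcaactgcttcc
Fosb: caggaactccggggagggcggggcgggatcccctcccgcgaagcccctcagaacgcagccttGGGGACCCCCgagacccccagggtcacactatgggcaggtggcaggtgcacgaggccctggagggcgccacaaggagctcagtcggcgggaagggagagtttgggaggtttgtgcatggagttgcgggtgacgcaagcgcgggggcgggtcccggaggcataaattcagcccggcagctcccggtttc

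For the comparison of the libraries, UMIs were summed over all members of each library and scaled to CPM. A gene entered when its mean over both libraries was at least 20 CPM, and was called when N-LKO and WT differed at least 2-fold on the log2 scale with 0.5 UMI added. Of 6510 genes tested, 311 (4.78%) were called higher and 479 (7.36%) lower in N-LKO, with a median log2 ratio of -0.03. In Kupffer barcodes 3.05% were called higher and 5.25% lower. Of the calls 39.4% were in the higher direction, and after subtraction of free RNA, with 553 higher and 449 lower, 55.2%. Among the genes called, 89 of the higher and 55 of the lower ones were at least 2 times as high in the members as in their library's barcodes under 500 UMIs. The ratio also moved with gene span. With the genes divided by span into 5 bins of 1302, the shortest bin had a median log2 ratio of -0.42 and the longest 0.35, beside -0.23 and 0.30 in Kupffer barcodes. The part of free RNA and of gene span in the differences below was not tested beyond the values given.

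Classical monocyte genes outside the rule were close between the libraries, apart from a few that were higher in N-LKO. Of 13 tested, 10 were above 0 and 3 were called higher, with a median log2 ratio of 0.22 (-0.10 to 1.09 over genes). Vcan measured 54.2 and 184 CPM, a log2 ratio of 1.74 (1.21 to 2.37), and was at most 3.28 CPM in barcodes under 500 UMIs. Within subcluster 1, which Vcan led and helped to set, it measured 109.7 and 370.2 CPM, given as a description. Plac8, a small cysteine-rich protein abundant in monocytes, measured 845 and 900.0 CPM, and Fn1, fibronectin, 557 and 595 CPM. Neither ratio was clear of 0 within its counting interval over all members. Within subcluster 1, where Fn1 was a leading gene and helped to set the members, it measured 1152 and 898 CPM, also given as a description. Its log2 ratio there was -0.36 (-0.59 to -0.12). Hp, haptoglobin, which hepatocytes secrete in large amounts, measured 344 and 823 CPM but 433 and 1492 CPM in barcodes under 500 UMIs. After subtraction of free RNA its log2 ratio turned from 1.25 to -0.90. Thbs1, thrombospondin-1, was the third gene called, at 31.8 and 69.2 CPM, and is named here after its values were seen.

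Patrolling monocyte genes showed no common direction. Of 13 tested, 9 were above 0, with a median of 0.17. Fabp4, described below, was called higher and Spn lower. Cebpb, a transcription factor needed for the survival of Ly6C-low monocytes, measured 318 and 251 CPM. The sialoglycoprotein CD43, encoded by Spn, measured 43.0 and 19.9 CPM, a log2 ratio of -1.12 (-1.91 to -0.28). Gngt2, a G protein subunit, measured 252 and 307 CPM.

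Macrophage maturation genes were the group with the highest median in members, and they did not have it in Kupffer barcodes. Of 19 tested, 16 were above 0, against 48.1% of all genes tested, and 3 were called higher, with a median log2 ratio of 0.64 (0.17 to 0.97). The Kupffer median was -0.07, with 9 of 20 above 0, and the difference itself was not tested. After subtraction of free RNA the members' median was 0.82. Mertk, a receptor for the uptake of dying cells, measured 52.4 and 142 CPM, a log2 ratio of 1.42 (0.87 to 2.06). It also rose in barcodes under 500 UMIs, from 33.2 to 88.2 CPM, and stood at 669 and 893 CPM in Kupffer barcodes. After subtraction of free RNA its log2 ratio was 1.48. Ms4a7, a membrane protein of monocyte-derived macrophages, measured 31.8 and 90.9 CPM, a log2 ratio of 1.48 (0.79 to 2.33). Unlike the list median, Ms4a7 was also higher in N-LKO Kupffer barcodes, at 63.1 and 134 CPM, a log2 ratio of 1.09. In barcodes under 500 UMIs it measured 2.94 and 17.5 CPM. Within subcluster 2, Mertk stood at 107 and 293 CPM and Ms4a7 at 93.9 and 228 CPM. Both are leading genes of that subcluster and helped to set its members, so these levels are a description and no separate check.

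Other maturation genes had smaller ratios or lay below the level of free RNA. Fcgr1, the high-affinity IgG receptor and the third gene called, measured 26.2 and 56.9 CPM. The complement genes C1qa and C1qb, chosen after their values were seen, measured 148 and 271 CPM and 209 and 368 CPM. C1qc, which encodes the remaining C1q chain, was closer at 159 and 191 CPM, a log2 ratio of 0.26 (-0.08 to 0.63), and stood at 409 and 405 CPM in subcluster 2. Apoe, the lipoprotein ligand apolipoprotein E, measured 4299.8 and 6713 CPM, below the 6482 and 8350.3 CPM of barcodes under 500 UMIs. Trf, transferrin, measured 1416 and 1707 CPM, also below those barcodes, and its log2 ratio of 0.27 became -2.12 after subtraction. Csf1r, the receptor for the growth factor CSF1, was level over all members at 241 and 234 CPM. In subcluster 1 it was lower in N-LKO, at 291 and 184 CPM, a log2 ratio of -0.67 (-1.14 to -0.16). In subcluster 2 it was level at 369 and 372 CPM. In subcluster 1 the list's median was 0.32 (-0.14 to 0.67 over genes) and in subcluster 2 it was 0.44 (-0.02 to 0.54). Both intervals held 0.

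Lipid-associated macrophage genes had medians above 0 in members and in Kupffer barcodes. Of 20 tested, 17 were above 0 and 7 were called higher, with none called lower and a median log2 ratio of 0.60 (0.38 to 1.14). The Kupffer median was 0.88, with 19 of 19 above 0. Spp1 measured 59.8 and 255 CPM, a log2 ratio of 2.07 (1.57 to 2.65), beside 18.0 and 158 CPM in barcodes under 500 UMIs. The UMIs of Spp1 lay in 14 WT and 168 N-LKO members. Fabp4, a fatty acid-binding protein, measured 20.6 and 91.5 CPM, below the 40.5 and 128 CPM of barcodes under 500 UMIs. Mmp12, macrophage elastase, measured 28.1 and 95.6 CPM, beside 12.7 and 93.0 CPM in those barcodes.

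The other 4 genes called in the list were Pparg, Abca1, Cd63 and Cd9, the last 3 named after their values were seen. Pparg, a lipid-sensing nuclear receptor, measured 39.3 and 88.6 CPM, and Abca1, which exports cholesterol, 118 and 293 CPM. Cd63 measured 37.4 and 93.9 CPM and Cd9 31.8 and 71.6 CPM, both tetraspanins. The receptor gene Trem2 was closer, at 46.8 and 72.7 CPM, with a log2 ratio of 0.61 (0.01 to 1.32), and Gpnmb stood at 74.8 and 98.0 CPM. Lgals3, galectin-3, measured 344 and 456 CPM, and Npc2, a lysosomal cholesterol carrier, 421 and 405 CPM.

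The size of the lipid-associated difference depended on which members were counted. Its median was 0.28 (0.11 to 1.25) over subclusters 1, 2 and 4. With a marker sum of at least 3 it was 0.30 (-0.06 to 0.77), an interval that held 0. Within subcluster 1 it was 0.08 over 11 genes and within subcluster 2 0.43 (-0.08 to 1.13) over 19 genes. In subcluster 2, 7 of the 19 were called higher, beside 4.70% of all 3279 genes tested there, whose median was -0.12. Spp1 measured 71.3 and 167 CPM in subcluster 1 and 47.0 and 266 CPM in subcluster 2. Trem2 measured 107 and 148 CPM in subcluster 2, a log2 ratio of 0.43 (-0.34 to 1.34), and Gpnmb 235 and 201 CPM.

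**Figure D3:**
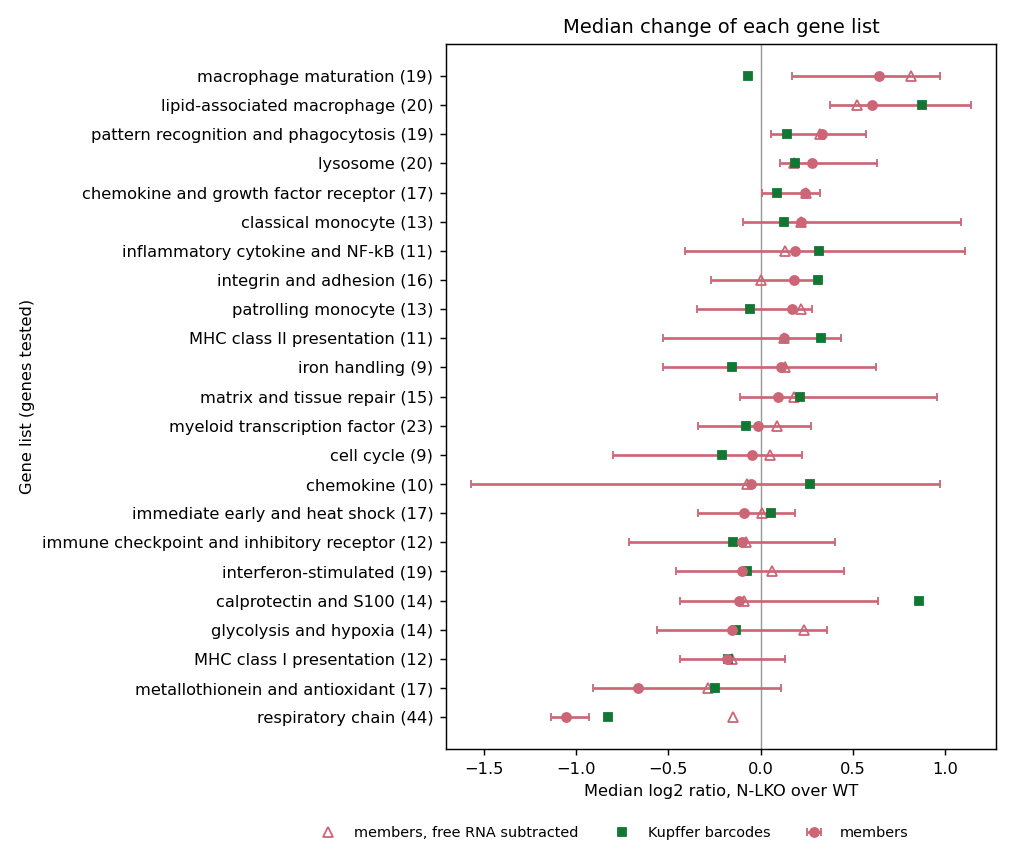
Median log2 ratio of N-LKO over WT (horizontal axis) for the 23 gene lists with at least 6 genes tested, number tested in parentheses. Red points are members with order-statistic 95% intervals over genes, open triangles members after subtraction of free RNA, and green squares Kupffer barcodes. Macrophage maturation lies at 0.64 in members and -0.07 in Kupffer barcodes, and the respiratory chain at -1.06 in members and -0.15 after subtraction.

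Cytokine and NF-κB pathway genes were mixed. Of 11 tested, 6 were above 0 and 2 were called higher, with a median of 0.19 (-0.41 to 1.11). Il1b measured 146 and 239 CPM, a log2 ratio of 0.70 (0.36 to 1.08), whereas Kupffer barcodes showed 249 and 141 CPM. Ier3, an early response gene, measured 22.4 and 53.4 CPM and Ptgs2 14.96 and 34.0 CPM, both called higher. Nfkb1, the precursor of the p50 subunit, measured 196 and 224 CPM. Within subclusters 1 and 2 Il1b stood at 154 and 137 CPM and at 188 and 150 CPM, with intervals that held 0. Subcluster 3 held Il1b at 35.6 and 213 CPM, from 4 and 40 UMIs.

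Among chemokines, ligands of CXCR3, a chemokine receptor carried by T cells, were lower in N-LKO members. Cxcl9 measured 93.5 and 22.3 CPM, a log2 ratio of -2.06 (-2.72 to -1.43), and its N-LKO level was that of N-LKO barcodes under 500 UMIs, 23.1 CPM. Cxcl10 measured 103 and 34.6 CPM, a log2 ratio of -1.57 (-2.13 to -1.01). Both genes are induced by interferon-γ. Their UMIs were spread over 28 WT and 33 N-LKO members for Cxcl9 and over 25 and 29 members for Cxcl10. For Cxcl10 the 5 richest members held 52.7% of WT UMIs and 54.2% of N-LKO UMIs.

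Both CXCR3 ligands were lower in each of the main subclusters. Cxcl9 measured 76.8 and 12.7 CPM in subcluster 1 and 181 and 21.1 CPM in subcluster 2. Cxcl10 measured 137 and 12.7 CPM in subcluster 1, a log2 ratio of -3.37 (-4.79 to -2.24), and 181 and 67.6 CPM in subcluster 2, a log2 ratio of -1.43 (-2.21 to -0.63). In Kupffer barcodes Cxcl9 stood at 41.2 and 25.3 CPM and Cxcl10 at 19.8 and 24.0 CPM.

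Ccl5, a chemokine that T and natural killer cells secrete, measured 557 and 205 CPM in all members, a log2 ratio of -1.45 (-1.67 to -1.22). It led the T and natural killer-like subcluster 5, with 2328 CPM there against 172 CPM in the other members, and stood at 54.9 and 90.6 CPM in subcluster 1 and at 101 and 120.3 CPM in subcluster 2. In subcluster 3 Ccl5 was lower in N-LKO, at 828 and 372 CPM, a log2 ratio of -1.15 (-1.62 to -0.69). Subcluster 4 held 16 WT and 15 N-LKO UMIs of Ccl5, which are not compared because only 7 of its members were from WT. Ccl6, a ligand for CCR1, was level over all members at 340.4 and 323 CPM, with 26.4% of its WT UMIs in 1 member. In subcluster 2 Ccl6 measured 570 and 357 CPM, a log2 ratio of -0.68 (-1.06 to -0.28), and in subcluster 1 433 and 365 CPM, with an interval that held 0. Subclusters 1 and 2 held 79 and 85 of its 182 WT UMIs. The richest WT member may therefore set the WT level in either subcluster, and no direction is read from them. Over the whole list 1 of 10 chemokines was called higher, Cxcl2 at 58.0 and 118 CPM, and 4 were called lower, with a median of -0.05. The fourth called lower was Ccl2, the ligand of CCR2, at 33.7 and 15.3 CPM. Ccl2 and Cxcl2 are named after their values were seen.

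Receptors and adhesion molecules differed little. Of 17 chemokine and growth factor receptors, 13 were above 0 and 1 was called higher, with a median of 0.24 (0.01 to 0.32). That gene was Cxcr4, the receptor for the marrow ligand CXCL12, at 20.6 and 45.8 CPM. Tgfbr1, a receptor for TGF-β, measured 196 and 330 CPM. Of 16 integrin and adhesion genes, Itgb5 was called higher and Spn lower, with a median of 0.18. Itgb5, an integrin subunit for vitronectin, measured 78.6 and 162 CPM, and Cd44, a hyaluronan receptor, 228 and 350 CPM. Itga4, the α4 integrin that binds VCAM-1, measured 421 and 374 CPM.

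Pattern recognition, phagocytosis and lysosome genes had medians slightly above 0 in members and in Kupffer barcodes. For pattern recognition and phagocytosis, 15 of 19 were above 0 with a median of 0.33 (0.05 to 0.57), beside 0.14 in Kupffer barcodes, and Fcgr1 alone was called. Cybb and Cyba, the membrane subunits of the phagocyte oxidase, were near level at 597 and 658 CPM and at 426 and 444 CPM. Tlr4, the endotoxin receptor, measured 16.8 and 35.2 CPM, just under the 2-fold limit. For lysosome genes, 17 of 20 were above 0 with a median of 0.28 (0.10 to 0.63), beside 0.19 in Kupffer barcodes. Psap, a saposin precursor, measured 1042 and 1369.9 CPM and Ctss, cathepsin S, 903 and 997 CPM. The 2 called higher were Npc1, which moves cholesterol out of lysosomes, at 28.1 and 60.4 CPM and Hexa, a hexosaminidase subunit, at 63.6 and 131 CPM.

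Antigen presentation and interferon genes showed no shift as groups. MHC class II genes had a median of 0.13 (-0.53 to 0.44) over 11 genes, with Cd74, the invariant chain, at 2254 and 2573 CPM and H2-Aa at 986 and 1078 CPM. Cd80, a costimulatory ligand, was the only one called, at 11.2 and 31.7 CPM, and H2-DMb1, which helps load peptides, stood at 127 and 77.4 CPM. MHC class I genes had a median of -0.18 over 12 genes with none called, and B2m measured 1290.5 and 1149 CPM. Interferon-stimulated genes had a median of -0.10 (-0.46 to 0.45) over 19 genes. Gbp2, a guanylate-binding protein induced by interferon-γ, was the only one called, at 65.5 and 18.8 CPM, a log2 ratio of -1.80 (-2.54 to -1.07). Ifitm3 and Ly6e, 2 interferon-induced membrane proteins, measured 1274 and 1076 CPM and 670 and 883 CPM.

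Matrix and repair genes went in both directions. The 2 called lower were Arg1 and Retnla. Arg1, arginase, measured 548 and 200.1 CPM, a log2 ratio of -1.45 (-1.68 to -1.22), but 826 and 293 CPM in barcodes under 500 UMIs, and it stood at 458 and 172 CPM in Kupffer barcodes. Retnla, the resistin-like protein of alternatively activated macrophages, had 36 UMIs in WT, all in 3 members, and 1 UMI in N-LKO. Over 15 genes 10 were above 0, with a median of 0.09. The 3 called higher were Mmp12, Thbs1 and Mmp8, neutrophil collagenase, at 13.1 and 33.4 CPM. Mmp8 is named after its values were seen. Of the immune checkpoint and inhibitory receptor list, Arg1 alone was called among 12 genes, and Lgals9, galectin-9, measured 301 and 158 CPM.

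Genes of mitochondrial respiration were lower in N-LKO members by the widest margin of any list, and most of the difference was gone after subtraction of free RNA. All 44 tested were below 0 and 24 were called lower, with a median log2 ratio of -1.06 (-1.14 to -0.93). The Kupffer median was -0.83, with 44 of 44 below 0. Subtraction of free RNA brought the members' median to -0.15, with 15 of 44 above 0. Cox4i1, a cytochrome c oxidase subunit, measured 1047 and 746 CPM, beside 1271 and 631 CPM in barcodes under 500 UMIs. Cox6c measured 1039.9 and 400.1 CPM, beside 1718 and 432 CPM. Uqcr10, a subunit of complex III, measured 549.9 and 198 CPM, and Atp5k, a subunit of ATP synthase, 519.9 and 190.1 CPM.

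Antioxidant genes had a median of -0.67 (-0.91 to 0.11) over 17 genes, with 3 called higher and 4 lower, and a Kupffer median of -0.25. Those lower were Cat, Sod1, Sod2 and Prdx6, enzymes that break down superoxide or peroxides, named after their values were seen. Each of them was at a higher level in WT barcodes under 500 UMIs than in WT members, as Sod1 with 1109 against 574 CPM. Gpx1, a glutathione peroxidase, measured 1736 and 1164 CPM and Prdx1, a peroxiredoxin, 1173 and 715 CPM. The metal-binding metallothioneins went the other way, Mt1 at 74.8 and 356 CPM and Mt2 at 11.2 and 78.0 CPM. Both were higher still in N-LKO barcodes under 500 UMIs, at 591 and 185 CPM. After subtraction the log2 ratio of Mt1 was 0.41 and that of Mt2 -2.19. The third gene called higher was Slc7a11, the cystine transporter, at 18.7 and 48.7 CPM, which also led subcluster 4.

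Glycolysis and iron genes showed no common direction. The glycolysis and hypoxia median was -0.16 over 14 genes with none called, and became 0.24 after subtraction. Gapdh measured 645 and 473 CPM and Ldha 337 and 226 CPM, both glycolytic enzymes. Iron handling genes had a median of 0.11 over 9 genes. The ferritin chains Fth1 and Ftl1 measured 5248 and 3902 CPM and 3791 and 2622 CPM, beside 5695 and 1972 CPM and 4023 and 1441 CPM in barcodes under 500 UMIs. Steap4, a metalloreductase, was the only iron gene called, at 22.4 and 68.6 CPM.

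Myeloid transcription factors had a median of -0.01 over 23 genes, with Pparg called higher and Id3 and Cebpa lower. Zeb2, a repressor that sustains macrophage identity, measured 1184 and 1636 CPM and Runx1 260 and 331 CPM. Id3, an inhibitor of basic helix-loop-helix factors, was lower at 206 and 90.9 CPM, a log2 ratio of -1.18 (-1.54 to -0.81), and Kupffer barcodes held it at 344 and 227 CPM. Cebpa, which hepatocytes also express, measured 72.9 and 35.8 CPM, beside 114 and 44.6 CPM in barcodes under 500 UMIs, and is named after its values were seen.

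Calprotectin and S100 genes had a median of -0.12 over 14 genes in members and 0.86 over 13 genes in Kupffer barcodes. S100a8 and S100a9, the calprotectin subunits, measured 208 and 469 CPM and 372 and 709 CPM. Their UMIs lay in few members, and for S100a8, the only one called, the 5 richest held 97.3% of WT UMIs and 36.8% of N-LKO UMIs. Crip1 measured 849 and 672 CPM and Tmsb10, which binds actin monomers, 898 and 570 CPM. Immediate early genes and heat shock genes, known to be induced when tissue is dissociated, had a median of -0.09 over 17 genes with none called. Egr1 measured 72.9 and 116 CPM, Zfp36 198 and 134 CPM and Hspa8 877 and 835 CPM. Cell cycle genes had a median of -0.05 (-0.80 to 0.23) over 9 genes, with Hmgb2 at 198 and 204 CPM and 1 called lower, Mcm6, at 29.9 and 14.7 CPM. That median had no stable direction, at 0.86 (0.40 to 1.30) with the mitochondrial limit of 10%, 0.67 (0.18 to 0.94) with myeloid genes required and -1.72 (-2.17 to -1.04) without subclusters led by other cell types.

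**Figure D4:**
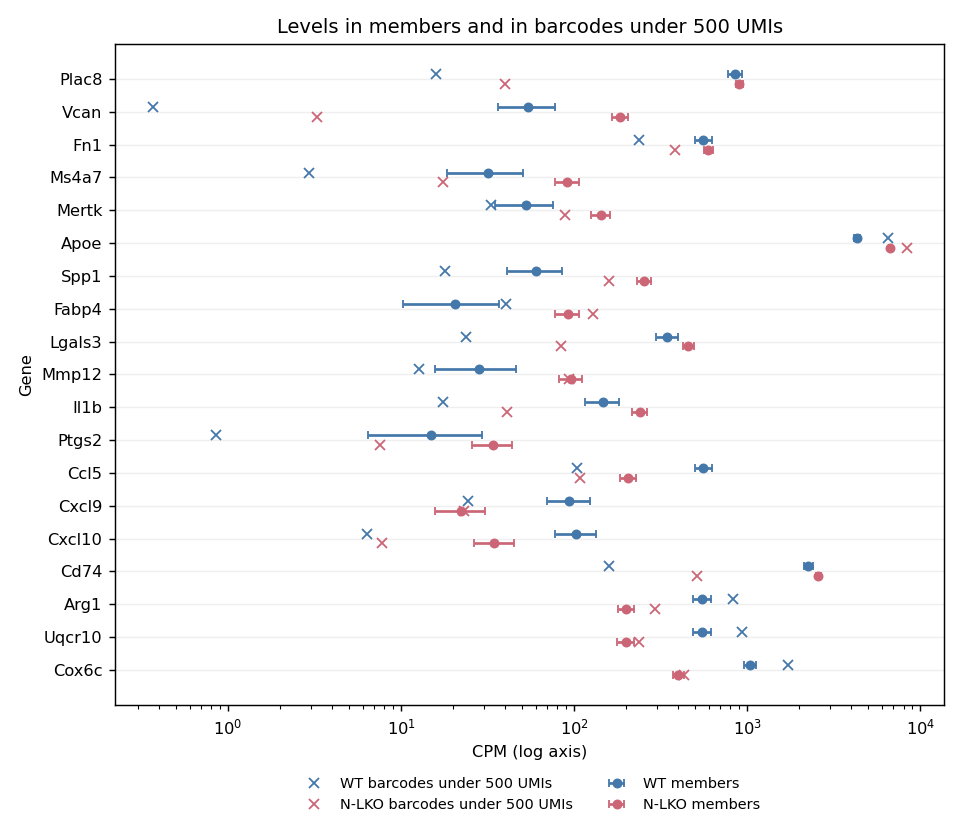
Level of 19 genes (horizontal log axis, CPM) in WT members (blue points) and N-LKO members (red points) with exact Poisson 95% intervals, and in barcodes under 500 UMIs of each library (crosses). Vcan lies at 54.2 and 184 CPM, far right of its crosses, whereas Apoe, Arg1 and Uqcr10 lie left of theirs.

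The largest differences among genes of at least 50 CPM that stood above free RNA included genes whose UMIs lay in a handful of members. Those highest in N-LKO were Ighg2b, Mpp7, Nrg1, Vcan, Ngp, Ms4a7, Ighm, Fmn1, Ccnd3, March3, Camp and Epc1. Ighg2b, an immunoglobulin constant region, had 0 UMIs in WT, with an exact upper limit of 6.90 CPM, and 393 UMIs or 231 CPM in N-LKO, of which 5 members held 99.5%. The neutrophil granule genes Ngp and Camp lay in 2 WT members each and in 16 and 15 N-LKO members. By contrast Ccnd3, cyclin D3, was found in 56 WT and 378 N-LKO members at 114 and 301 CPM, a log2 ratio of 1.39 (1.01 to 1.81). Mpp7 and Nrg1, the growth factor neuregulin 1, measured 26.2 and 100.3 CPM and 26.2 and 98.6 CPM. All of Ccnd3, Mpp7 and Nrg1 were also higher in N-LKO outside the members. In barcodes under 500 UMIs Ccnd3 measured 22.7 and 77.9 CPM, Mpp7 9.43 and 35.9 CPM and Nrg1 11.5 and 43.6 CPM. Their log2 ratios in Kupffer barcodes were 1.92, 1.94 and 1.90.

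The lowest in N-LKO were Iglc2, Elane, Ighg2c, Cxcl9, Cxcl10, Hbb-bs, Mpo, Ccl5, Hba-a1, Klrd1, Prtn3 and Id3. All 158 WT UMIs of Ighg2c lay in 1 member, and those of Iglc2, Elane, Mpo and Hba-a1 in 4 members each. The globin gene Hbb-bs had 97.9% of its WT UMIs in 5 members. Klrd1, the natural killer receptor CD94 and a leading gene of subcluster 3, measured 84.2 and 35.8 CPM in 30 and 51 members. Cxcl9, Cxcl10, Id3 and Ccl5 were spread over at least 25 members of each library.

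Compared with Kupffer barcodes of the same library, members were highest in Elane, Vcan, Mpo, Camp, Prtn3, Ngp, Rgs18, Gpr141, S100a6 and Gm15987, all outside the rule and ordered by the smaller of the libraries' ratios. Rgs18, Gpr141, S100a6 and Gm15987 differed less than 2-fold between the libraries. Gpr141, an orphan receptor, measured 189 and 201 CPM in members and 3.21 and 11.7 CPM in Kupffer barcodes. S100a6 measured 698 and 581 CPM, against 26.7 and 48.4 CPM. These values describe cells that were separated by marker genes and carry no test.

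Genes of dolichol synthesis were scarce in the members. Dhdds, the partner of Nus1, measured 29.9 and 19.9 CPM, a log2 ratio of -0.61 (-1.48 to 0.37). Of the 10 listed genes 4 passed the level filter, all below 0 and none called. Dpm3, a stabilizing subunit of dolichol-phosphate mannose synthase, measured 84.2 and 52.2 CPM. Within subclusters 1 and 2, Nus1 stood at 93.3 and 58.8 CPM and at 87.2 and 48.6 CPM, and both intervals held 0.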

How the data were processed

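Droplet-based 3′ single-cell RNA-seq was performed on liver cells of WT and N-LKO mice, 1 library each. Reads were counted by the authors with Cell Ranger 7.1.0 (per the file headers), and the deposited values are raw UMI counts per gene and barcode. The submitters' processing notes name mm9, Cell Ranger and Seurat, without versions. Whether intronic reads were counted is not given in the sources used here. Cell types named by the study were not used, and the files hold more barcodes than the cells that the study clustered.

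Barcodes were grouped by genotype label and selected by the rule given above. Kupffer barcodes had at least 3 UMIs of Clec4f, Vsig4 and Cd5l, at most 1 of Ccr2, F13a1, Ly6c2 and Chil3, and none of the exclusion genes. The members, gene lists and rules were chosen with earlier results of these data known. UMIs of members were summed per library, and log2 ratios carry 0.5 added UMI. With 1 library per group no p-value was computed. Shares have Clopper-Pearson, levels Poisson and ratios conditional binomial intervals, and medians order-statistic intervals over genes. Free RNA was the profile of barcodes under 500 UMIs, scaled by 20 hepatocyte genes. After its subtraction, sums were held at a floor of 3 UMIs. The script was tested on simulated counts.

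Members were clustered with scanpy 1.11.5 and leidenalg 0.10.2 (20 principal components, 15 neighbours, resolution 0.5, no integration). Named genes are the 16 rule genes, Nus1 and Dhdds, the 2 highest in level and in absolute log2 ratio of each of 24 role lists, the 12 highest and 12 lowest ratios at 50 CPM or more and at least 2 times the level in barcodes under 500 UMIs (mitochondrial, Rpl, Rps, Gm and Rik genes left out), the 10 highest over Kupffer barcodes, and 3 leading genes per subcluster. Alternatives changed the marker sum, S100a4, myeloid genes, mitochondrial limit, depth, doublets, filters, scaling, added UMIs and free RNA. Python 3.11.15, numpy 2.4.6, scipy 1.17.1 and pandas 2.3.3 were used.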

Additional observations from a re-analysis of the deposited data

Results flagged for a closer look

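In all, 3 genes named above were past 2-fold in opposite directions in members and in Kupffer barcodes, with counting intervals clear of 0 in both. The difference between the cell classes was not tested. Klrd1 had a log2 ratio of -1.24 (-1.81 to -0.64) in members and 1.65 (0.47 to 3.29) in Kupffer barcodes. The Kupffer value rested on 6 and 34 UMIs, or 3.21 and 10.7 CPM, near the 3.18 and 6.07 CPM of barcodes under 500 UMIs. Ighg2c had -2.13 in members, where 1 WT barcode held all WT UMIs, and 3.61 in Kupffer barcodes, from 7 and 154 UMIs. Iglc2 had -2.62 in members and 2.11 in Kupffer barcodes, from 3 and 25 UMIs.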

How the results depend on the processing

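No paired analysis was possible because each group had 1 library. The ratio of member shares, 2.63, was 3.10 with a marker sum of at least 3, 2.98 without S100a4, 3.06 in subclusters 1, 2 and 4, 1.03 at a mitochondrial limit of 10%, 4.84 at a UMI minimum of 500, 1.37 among leukocyte barcodes and 1.63 without hepatocyte barcodes. Genes called higher, 311 in the main count, numbered 967 at the mitochondrial limit of 10%, 553 after subtraction of free RNA, 120 at a mean of 50 CPM, 930 with 1 UMI in each library and 133 with 5 UMIs added. Genes called lower, 479 in the main count, numbered 1363 without subclusters led by other cell types in the clustering on all variable genes, 262 at 50 CPM and 1828 with 1 UMI in each library. Leaving out those subclusters kept 59 WT and 824 N-LKO members and shifted the median log2 ratio of all genes from -0.03 to -0.31, the mitochondrial limit of 10% to 0.11 and 5 added UMIs to -0.18.

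For the list medians, leaving out those subclusters gave 0.43 for patrolling monocyte, 0.24 (-0.45 to 1.43) for lipid-associated, 0.45 for receptor, 0.69 for interferon-stimulated, -0.80 for respiratory chain and -1.72 for cell cycle genes. Lipid-associated genes were 0.30 with a marker sum of at least 3 and 0.28 in subclusters 1, 2 and 4, where matrix genes were -0.14. Receptors were 0.34 when thinned, the respiratory chain -0.15 after subtraction, and immediate early genes 0.23 at the mitochondrial limit of 10%. Cell cycle genes were 0.31 without S100a4, 0.67 with myeloid genes required and 0.86 at that limit. Single genes that turned sign were Hp (-0.90) and Mt2 (-2.19) after subtraction, Ighm with myeloid genes required (-0.62), at the mitochondrial limit (-0.049) and without subclusters led by other cell types (-0.73), Hbb-bs without those (3.66), and Iglc2 (0.0027), Mpo (0.76) and Prtn3 (0.63) when thinned. Members in clusters of over 90% from 1 library were 54.0% at resolution 0.5, 70.4% at 0.3 and 51.3% at 0.8, and 8.02%, 6.96% and 8.42% on genes above free RNA. The cause of these shifts was not tested. Depth limits scarce genes: Dhdds rested on 16 WT and 34 N-LKO UMIs.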
